A study of Mus musculus with 2 samples.

Results

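The cytosolic ribosomal protein genes are the 85 genes whose symbols read Rpl or Rps followed by a digit, together with Rplp0, Rplp1, Rplp2 and Rpsa, that had at least 20 unique molecular identifiers (UMIs, 1 tag per captured RNA molecule) over both libraries. Symbols with -ps and the S6 kinases were left out. The rule matched 87 of the 27998 genes in the table, and 85 of these reached the minimum, out of 9066 genes that did so in all. Rpl10l had 0 UMIs in both libraries and Rpl3l had 0 and 3, so neither was measured, and the member closest above the minimum was Rpl39l with 9 and 22. Of the 85 members, 51 carried large-subunit and 34 small-subunit symbols. A core of 77 members remained without 8 paralog-like symbols: Rpl22l1, Rpl6l, Rps27l, Rps27rt, Rpl36al, Rpl39l, Rpl7l1 and Rps19bp1. The last encodes a nucleolar protein that binds Rps19 and is not itself a ribosomal protein.

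Spinal cord cells were sorted for tdTomato from mice of the strain Cx3cr1-CreER::Rosa26-tdTomato, bred on C57BL/6J, and their RNA was read cell by cell. The uninjured library came from aged-matched control cord and the injured library from cord at day 5 after an injury with lysolecithin, a lipid that strips myelin. Both carried the same alleles, and recombination in both was started with 4-hydroxytamoxifen (1 mg per injection) at postnatal week 4. Cord was taken 4 weeks after that treatment. The Cx3cr1 driver labels microglia and also other macrophages of the nervous system, so sorted cells are not microglia by genotype alone. The number of animals, their sex, the zygosity of the alleles and whether control cord received a sham injection are not stated. Each group is 1 library, so each difference below compares these libraries, and no p-value was computed.

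A cytosolic ribosome joins a small subunit, which reads the messenger RNA, to a large subunit, which forms the peptide bond, and each core ribosomal protein is as a rule built in once per ribosome, the paired stalk proteins apart. Most mammalian ribosomal protein messenger RNAs begin with a terminal oligopyrimidine (TOP) tract, a C followed by a run of pyrimidines, through which mTOR and the RNA-binding protein Larp1 control their translation. A level of such an RNA therefore is not a rate of protein synthesis. In brain and spinal cord, microglia divide and change their metabolism and secretion after injury, and ribosomal protein transcripts are among the most abundant messengers of any cell.

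The kept cells, 695 uninjured and 577 injured, held 2093084 and 3095511 UMIs, with medians of 3003 and 4396 UMIs per cell. No barcode occurred in both libraries, scatter gates at the sort were the only step against doublets, and no doublet caller was run. All 10 microglia markers were present in each library, summing to 26294 and 15184 CPM (UMIs of a gene as counts per 1000000 UMIs of the library), and 693 and 572 cells held at least 3 marker UMIs. Marker sums of 12 other cell types lay between 0 and 223 CPM. The largest were oligodendrocyte markers (223 and 117 CPM), border-associated macrophage markers (69.8 and 128 CPM) and endothelial markers (121 and 31.0 CPM), and T or NK cell markers were at 0 and 0.323 CPM. Cells with UMIs of Xist and of no Y-linked gene numbered 6 and 213 in the uninjured and injured libraries, while 235 and 147 had Y-linked UMIs and no Xist. The libraries thus differed in the sex of their cells as well as in injury, and these cannot be told apart for a gene whose level depends on sex. Ratios within the Y-positive, Xist-negative cells stand beside the main results. Those cells were deeper than cells with neither, at medians of 3448 and 4599 UMIs against 2837 and 3985.5. Members took 12.5% and 13.7% of their UMIs, against 12.1% and 15.2% in cells with neither. In cells with Xist alone the values were 15.2% and 13.2%. The setting thus also changes the depth of the cells compared, and the part of sex in the ratios was not tested.

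Start-site sequences of some members are shown as examples of the 5′ end of these RNAs. These examples hold a pyrimidine tract more often than the members as a whole, which are counted below. They were read from RefSeq (GRCm38.p6), each with 15 bases before and 15 after the start, 5′ to 3′ on the gene's own strand. Capitals mark, of each C within 10 bases of the start that at least 4 pyrimidines (C or T) follow, the one nearest the start, with the pyrimidines after it; pyrimidines before it stay in lower case. These lie at chr2:39005117-39005146 for Rpl35, chr17:33955651-33955680 for Rps18, chr7:141447636-141447665 for Rplp2, chr2:180257364-180257393 for Rps21, chr3:90213634-90213663 for Rps27, chr9:114982725-114982754 for Rps27rt, chr9:66946071-66946100 for Rps27l, chr3:28805493-28805522 for Rpl22l1 and chr10:128549154-128549183 for Rpl41.
Rpl35: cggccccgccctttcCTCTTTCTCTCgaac
Rps18: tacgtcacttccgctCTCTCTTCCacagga
Rplp2: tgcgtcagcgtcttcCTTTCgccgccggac
Rps21: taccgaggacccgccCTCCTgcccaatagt
Rps27: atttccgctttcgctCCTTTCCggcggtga
Rps27rt: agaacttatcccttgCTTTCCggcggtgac
Rps27l: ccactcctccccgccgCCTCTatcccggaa
Rpl22l1: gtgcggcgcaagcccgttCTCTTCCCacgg
Rpl41: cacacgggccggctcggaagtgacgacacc

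The marked C lay exactly at the annotated start in Rpl35, Rps18, Rplp2, Rps21, Rps27 and Rps27rt. It lay 1 base downstream in Rps27l and 3 bases downstream in Rpl22l1, and Rpl41 had no match in its window. Of the 85 members 64 were in the RefSeq start table, and 38 of these (59.4%) held such a tract at a start, against 9297 of all 27025 genes in that table (34.4%). A tract with its C exactly at a start was found in 14 members (21.9%), against 3.01% of all genes. Rplp1, Rps29, Rpl30, Rpl23a and Rpl32 were among the 21 members with no entry. The match describes these letters only, and annotated starts can be several bases off the site a cell uses.

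Members took 12.3% of all UMIs in the uninjured library (256725 UMIs, exact 95% binomial interval 12.2 to 12.3) and 13.9% in the injured library (431800 UMIs, 13.9 to 14.0). Their summed level was thus 1.14-fold higher after injury, a log2 ratio of 0.19 (0.18 to 0.19). All intervals cover counting error only. Large-subunit members went from 6.84% to 8.05% of UMIs (log2 ratio 0.23) and small-subunit members from 5.42% to 5.90% (log2 ratio 0.12). The ratio stayed above 0 in the 16 other settings tried, from 0.13 in cells with Y-linked UMIs alone to 0.37 with DESeq2 size factors. TMM factors and DESeq2 size factors raise every log2 ratio by 0.15 and 0.19. The median of all 9066 measured genes lay at −0.15 with UMI totals, −0.00 with TMM factors and 0.04 with DESeq2 size factors.

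The members differed little between the libraries and within a narrow range. Their median log2 ratio was 0.19 (quartiles 0.07 and 0.35), against −0.15 (−0.61 and 0.29) over all measured genes and 0.08 (−0.34 and 0.46) over the 1318 other genes with at least 500 UMIs, a set nearer to them in abundance. The standard deviation of the log2 ratios was 0.27 over members and 0.85 over those abundant genes. A gene counted as higher when its CPM was at least 25% above the uninjured level and as lower when at least 20% below it, the same step on the log2 scale. By this measure 29 of 85 members (34.1%) were higher in the injured library, beside a background of 23.8% of all measured genes and 33.7% of the abundant genes. Only 2 members (2.35%), Rplp1 and Rps27rt, were lower, beside a background of 40.1% of all measured genes and 25.9% of the abundant ones. The remaining 54 members lay between these limits. The share higher was thus near that of abundant genes, while the share lower was well under it. Among the 29 were 17 large-subunit and 12 small-subunit members. The count was 52 with DESeq2 size factors and 17 in cells with Y-linked UMIs alone, 16 of them among the 29. The median of all measured genes was 0.04 and −0.11 in these settings. The backgrounds above hold for UMI totals over all kept cells and not for these counts. At 2-fold, Rps27l alone was higher and no member lower, beside backgrounds of 7.22% and 11.5% of all measured genes and 6.53% and 6.98% of the abundant genes.

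**Figure D1:**
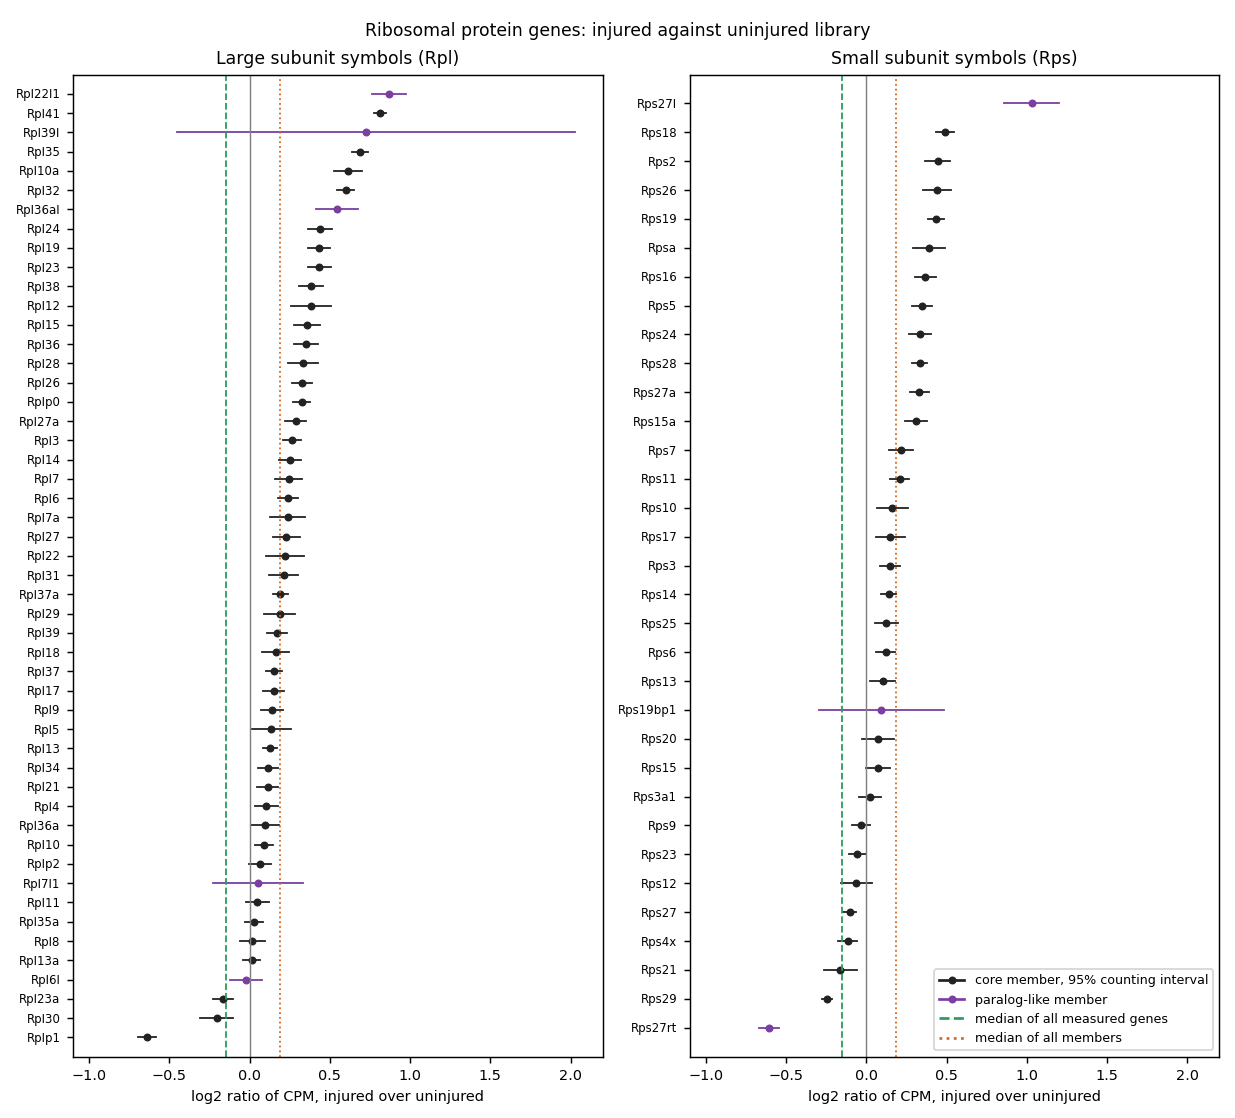
Log2 ratio of CPM, injured over uninjured, for 83 of the 85 members, split by subunit, with exact 95% intervals of a ratio of Poisson counts (counting error only). The dashed line is the median of all measured genes (−0.15) and the dotted line the median of members (0.19); Rps27l and Rpl22l1 lie at the top of their panels and Rps27rt and Rplp1 at the bottom.

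Members were among the most abundant genes in both libraries. Levels count molecules captured at their 3′ ends and are not divided by length, so they order transcripts and not proteins. In the uninjured library 55 members exceeded 1000 CPM and in the injured library 61 did. Rps29, which encodes a zinc-binding protein of the small-subunit head, was the most abundant member in uninjured cells with 5.32% of all member UMIs, and Rpl41, which encodes the smallest ribosomal protein, was the most abundant in injured cells with 4.24%. Rps27 and Rpl13 were among the 5 most abundant members in both libraries as well. The 10 most abundant members held 27.1% and 27.2% of member UMIs. Among core members the uninjured level ran from 392 CPM (Rpl12) to 6521 CPM (Rps29).

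**Figure D2:**
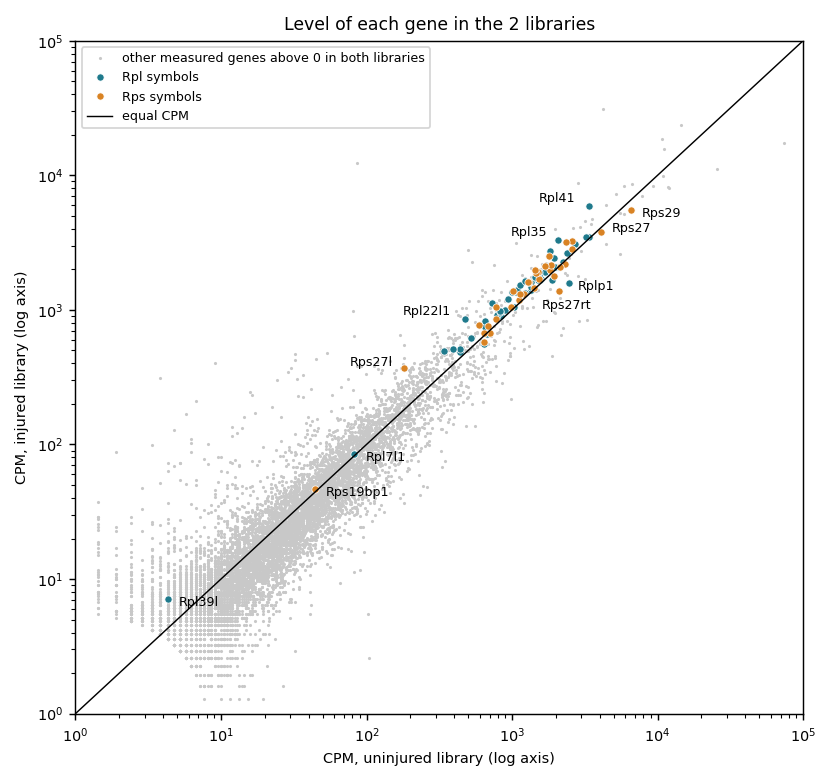
CPM of every gene measured above 0 in both libraries, uninjured on the x axis and injured on the y axis, both log scaled, with members in colour and equal levels on the line. Members form a tight band along the line near 1000 CPM; Rpl41, Rpl35, Rpl22l1 and Rps27l lie above it and Rplp1 and Rps27rt below it.

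Among large-subunit members, Rpl41 had 3371 uninjured and 5920 injured CPM, a log2 ratio of 0.81 (0.77 to 0.85). Rpl35, which sits at the exit of the peptide tunnel where nascent-chain factors dock, had 2059 and 3317 CPM (log2 ratio 0.69, 0.64 to 0.74). Rpl10a, the protein of the mobile L1 stalk, had 732 and 1119 CPM (log2 ratio 0.61, 0.52 to 0.70). These ratios stayed above 0.5 in every setting tried, with ranges of 0.73 to 1.00, 0.65 to 0.87 and 0.53 to 0.80. Rpl32 had 1814 and 2745 CPM (log2 ratio 0.60). Rpl24 and Rpl19, proteins of the bridges to the small subunit, had log2 ratios of 0.44 and 0.43. Rpl23, which lies on the face that joins the small subunit and can bind the p53 regulator Mdm2, was also at 0.43. By contrast Rpl5 and Rpl11, the partners of 5S ribosomal RNA and the best-known ribosomal inhibitors of Mdm2, had 441 and 484 CPM and 1350 and 1396 CPM (log2 ratios 0.14 and 0.05). Neither counted as higher. Rpl13a, which in macrophages is released from the ribosome in the response to interferon-γ, had 2251 and 2271 CPM (log2 ratio 0.01). Rpl3, near the peptidyl transferase centre, had 1774 and 2130 CPM (log2 ratio 0.26). The large-subunit members named here thus ran from nearly equal levels in both libraries to the 1.76-fold higher level of Rpl41.

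Among small-subunit members, Rps18, which contacts transfer RNA in the head of the subunit, had 1795 and 2525 CPM (log2 ratio 0.49, 0.44 to 0.55). Rps2, at the messenger entry channel, had 1012 and 1377 CPM (log2 ratio 0.44). Rps19 and Rps26, both mutated in the inherited red cell failure Diamond-Blackfan anaemia, had log2 ratios of 0.43 and 0.44. The ratios of Rps18 and Rps19 stayed above 0.3 in each setting tried. Rps6, the substrate of the S6 kinases, had 1824 and 1982 CPM (log2 ratio 0.12), and Rps3, also at the entry channel, had 1529 and 1694 CPM (log2 ratio 0.15). Rps27a, made as a fusion with ubiquitin, had 1695 and 2131 CPM (log2 ratio 0.33). Neighbours in the ribosome were thus not equal in ratio, since Rps2 counted as higher and Rps3 did not.

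The P-stalk recruits elongation factors to the large subunit and is built from Rplp0 with dimers of Rplp1 and Rplp2. Rplp0 had 1945 uninjured and 2435 injured CPM (log2 ratio 0.32, 0.27 to 0.38). Rplp2 had 1344 and 1407 CPM (log2 ratio 0.07, −0.00 to 0.13). Rplp1 had 2471 and 1584 CPM, the lowest ratio of all members (log2 ratio −0.64, −0.70 to −0.58), and stood at rank 9 and rank 41 by UMIs. The partners of 1 stalk thus had ratios above 0, near 0 and below 0. The ratio of Rplp1 lay between −0.67 and −0.46 in every setting, scaling included. Rpsa, the small-subunit protein also known as the laminin receptor, had 591 and 776 CPM (log2 ratio 0.39).

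Log2 ratios below 0 were found for 12 of 85 members with UMI totals, beside 5336 of all 9066 measured genes and 584 of the 1318 abundant genes. With TMM factors 6 members remained below 0 and with DESeq2 size factors 4, namely Rplp1, Rps27rt, Rps29 and Rpl30. The backgrounds hold for UMI totals and not for these counts of 6 and 4. Rps29 had 6521 and 5507 CPM (log2 ratio −0.24, −0.28 to −0.21). It was at −0.06 with DESeq2 size factors and 0.01 in cells of 2000 to 5000 UMIs, a depth window chosen after seeing the data. Rpl30, Rpl23a (at the tunnel exit) and Rps21 had log2 ratios of −0.21, −0.17 and −0.16, but DESeq2 size factors placed Rpl23a and Rps21 at 0.02 each and Rpl30 at −0.02. Rps27 had 4067 and 3783 CPM (log2 ratio −0.10) and turned to 0.04 with TMM factors and 0.26 in the depth window. The 8 members other than Rplp1, Rps27rt, Rps29 and Rpl30 therefore lay within the shift that the choice of scaling produces.

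The Rps27 family held the widest spread. Rps27 (chr3:90212522-90213651, minus strand, by the GENCODE annotation of GRCm38) encodes a zinc-finger protein of the small subunit. Rps27rt (chr9:114982366-114982739, minus strand) and Rps27l (chr9:66946086-66949516, plus strand, a p53 target gene) are genes closely related to Rps27. The coding sequences of Rps27 and Rps27rt were identical over 255 bases (100%), while Rps27l differed from Rps27 at 61 of 255 (76.1% identity). In the windows shown above, the transcribed bases of Rps27 after its first C were also those that begin Rps27rt, while the bases before the starts differed. The window of Rps27l differed from both. Rps27rt had 2116 and 1390 CPM (log2 ratio −0.61, −0.67 to −0.55), and its ratio ran from −0.70 in cells with Y-linked UMIs alone to −0.20 in the depth window, where it no longer counted as lower. Rps27l had 182 and 371 CPM, with 380 and 1147 UMIs (log2 ratio 1.03, 0.86 to 1.20), 2.04-fold higher, and its lowest ratio was 0.48, in the depth window. Of the 50-base windows in the last 400 bases of the Rps27 transcript 98.6% also occurred in the Rps27rt transcript, so reads could be assigned to either, and the treatment of such reads is not given in the sources used here. Summed UMIs of Rps27 and Rps27rt had a log2 ratio of −0.26 (−0.29 to −0.22), which did not count as lower. No such window was shared between Rps27 and Rps27l.

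Other paralog pairs differed less than Rps27 and Rps27l. Rpl22, an RNA-binding protein of the large subunit, had 439 and 511 CPM (log2 ratio 0.22, 0.10 to 0.34), and its paralog Rpl22l1 had 472 and 863 CPM (log2 ratio 0.87, 0.76 to 0.98). Their coding sequences shared 67.5% of bases and their intervals did not overlap. Rpl22l1 stood slightly above Rpl22 in uninjured cells and well above it after injury. Rpl36a had 845 and 902 CPM (log2 ratio 0.09), and Rpl36al had 339 and 494 CPM (log2 ratio 0.54, 0.41 to 0.67), with 87.9% of coding bases shared. Rpl39l had 9 and 22 UMIs (log2 ratio 0.72, −0.45 to 2.03), too few to give a direction. Rpl7l1 (log2 ratio 0.05), Rps19bp1 (0.09) and Rpl6l (−0.02), annotated as a processed pseudogene, had intervals that included 0. The paralog had the higher ratio for Rps27l, Rpl22l1 and Rpl36al, none of which shared a 50-base window at the 3′ end with its parent. It had the lower one for Rps27rt (−0.61, −0.67 to −0.55, against −0.10, −0.15 to −0.06, for Rps27), which shared 98.6% of such windows. Rpl6l also had the lower ratio (−0.02, −0.12 to 0.07, against 0.24, 0.18 to 0.30, for Rpl6) and shared 6.84% of such windows. The interval of Rpl7l1 (−0.23 to 0.34) contained that of Rpl7 (0.16 to 0.33).

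The genes of these members were spread over 19 chromosomes, with 14 on chromosome 7. The 4 X-linked members had a median log2 ratio of 0.09 and none counted as higher or lower. Rps4x had 1949 and 1797 CPM (log2 ratio −0.12, and 0.07 with DESeq2 size factors), Rpl10 1962 and 2085 CPM (0.09), Rpl36a 0.09 and Rpl39, which lines the peptide tunnel, 1693 and 1906 CPM (0.17). Across members the log2 ratio showed little relation to transcript length (Spearman rho 0.08), GC content of the transcript (0.00) or uninjured level (−0.23), over 85 genes that share the same libraries. Members with a pyrimidine tract at a start had a median log2 ratio of 0.24 (n = 38), those without one 0.14 (n = 26) and those with no entry 0.15 (n = 21). The ranges of the first pair of sets overlapped, from −0.61 to 1.03 and from −0.12 to 0.81.

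Parts of the ribosome outside the symbol rule followed the members unevenly. Fau, which is fused to a ubiquitin-like protein, had 2557 and 2591 CPM (log2 ratio 0.02), and Gnb2l1, the scaffold Rack1, 279 and 413 CPM (0.56). Elongation and termination factors had a median log2 ratio of 0.12, with 5 of 14 counted as higher and 3 as lower. The background for this list and those below was 23.8% of all measured genes higher and 40.1% lower. Eef1a1 and Eef2, whose RNAs also carry TOP tracts, had log2 ratios of 0.15 and 0.08. Of 39 initiation factors 15 were higher and 6 lower (median 0.24), led by Eif1ax (33.0 and 67.5 CPM, log2 ratio 1.03) and the cap-binding Eif4e (120 and 225 CPM, 0.90). Ribosome biogenesis genes had a median of 0.01, with 11 of 64 higher and 13 lower. Within that list the nucleolar proteins Npm1, Ncl and Fbl were at 0.38, −0.04 and −0.37, and the methylation-complex protein Nop56 had 172 and 101 CPM (−0.76). Biogenesis genes as a list therefore lay between the members and all measured genes.

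Regulators of ribosomal protein synthesis had a median log2 ratio of −0.31, with 4 of 17 higher and 8 lower. Over all measured genes 23.8% were higher and 40.1% lower, so the counts of this list were near the general share. Eef2k, the kinase that inhibits Eef2, had 59.7 and 16.8 CPM (−1.83, −2.33 to −1.35), Myc, which drives ribosome synthesis, 84.1 and 34.6 CPM (−1.28), and Maf1, a repressor of RNA polymerase III, 111 and 55.6 CPM (−1.0). Mdm2 had 76.9 and 190 CPM (1.30, 1.05 to 1.56). Larp1 had 32 and 58 UMIs (0.29, −0.35 to 0.96). The dissociation-associated early response list, by contrast with the members, had a median of −0.92, with 19 of 24 genes lower and none higher. Whether that difference between the libraries had a part in the members' ratios was not tested.

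Other large assemblies of housekeeping proteins had medians at or above that of the members. Mitochondrial ribosomal proteins, which translate the mitochondrial genome, were at a median of 0.23 (24 of 75 higher, 10 lower). Proteasome subunits were at 0.31 (18 of 38 higher, 1 lower) and nuclear-encoded oxidative phosphorylation genes at 0.41 (49 of 82 higher, 4 lower). The background was again 23.8% of all measured genes higher and 40.1% lower. The cytosolic ribosome thus did not have the largest ratio among these lists. Its quartiles were closer together than those of any other list or gene set plotted.

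**Figure D3:**
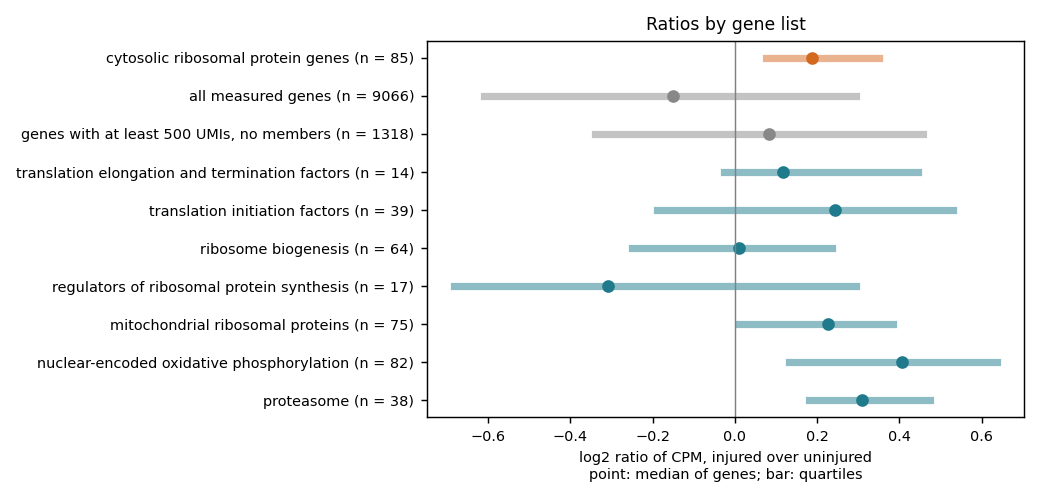
Median (point) and quartiles (bar) of the log2 ratio of CPM, injured over uninjured, for the members, for all measured genes, for other genes with at least 500 UMIs and for 7 gene lists. The members' median of 0.19 lies above that of all measured genes (−0.15) and below that of nuclear-encoded oxidative phosphorylation genes (0.41).

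Cell by cell, the share of UMIs from members was compared after thinning each cell at random to 1500 UMIs, which left out 91 uninjured and 10 injured cells below that depth. The median share was 11.5% (quartiles 9.33 and 14.1) over 604 uninjured cells and 13.5% (11.7 and 16.2) over 567 injured cells. Without thinning it was 11.1% and 13.6%. The distributions overlapped widely, from 4.13% to 26.7% and from 3.33% to 41.2%. A thinned cell held UMIs of a median of 65 members before and 69 after injury. The shares of large-subunit and small-subunit members varied together from cell to cell (Pearson r 0.89 and 0.88, Spearman rho 0.86 and 0.81), over cells that share a library and a fixed total. The variance of the summed member UMIs was 18.7 and 18.8 times its mean, against 0.879 and 0.858 if all cells of a library had the same share. For single members the median ratio of variance to mean was 1.2 in each library, highest for Rps29 at 2.37 and 2.34. This ratio grows with the mean, so it does not compare the sum with single members.

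**Figure D4:**
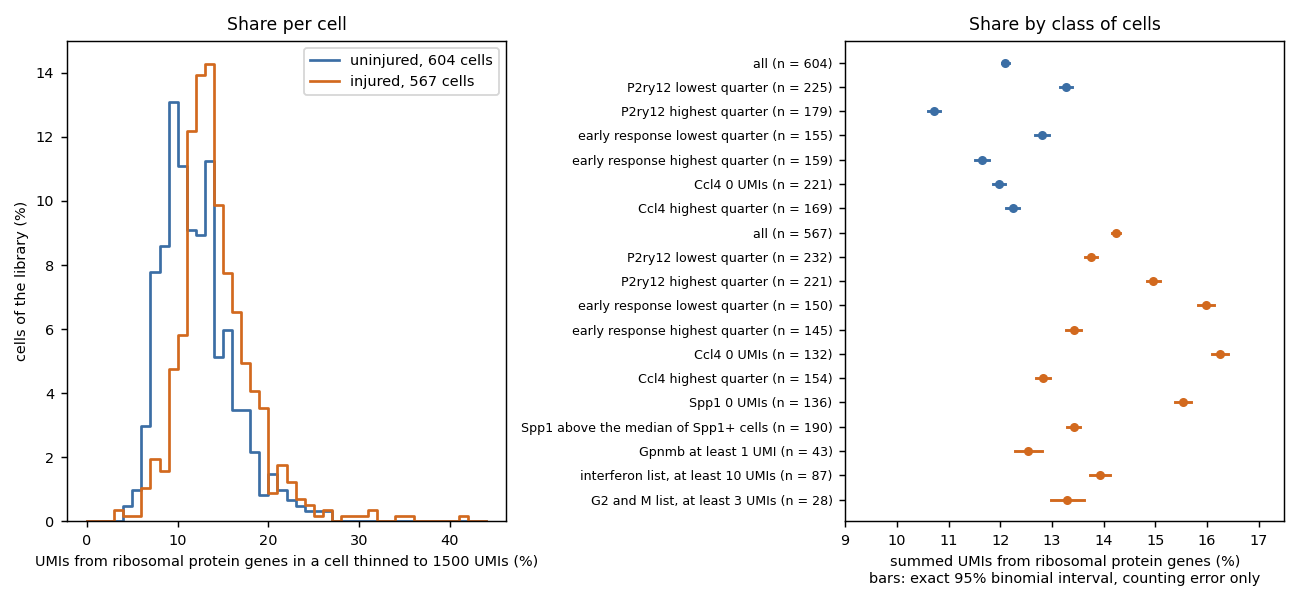
Left: distribution over cells of the percentage of UMIs from members after thinning to 1500 UMIs, for 604 uninjured (blue) and 567 injured (orange) cells. Right: the same percentage summed over classes of cells in the same colours, without the UMIs that define the class; the x axis starts at 9%, and the classes run from 10.7% in uninjured cells high in P2ry12 to 16.3% in injured cells without Ccl4.

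The relation to depth ran in opposite directions in the libraries. In uninjured cells split into 4 groups by UMIs, the member share was 10.4%, 11.4%, 12.6% and 13.1% from the shallowest to the deepest. In injured cells it was 14.7%, 14.9%, 14.5% and 13.1%. Median depths of these groups ran from 1449 to 4289 UMIs and from 2603 to 8903 UMIs. In cells of 2000 to 5000 UMIs, 502 uninjured and 308 injured, the log2 ratio of the summed members was 0.26, against 0.19 in all cells. Depth was not matched within that window, and its part in the difference was not tested.

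Member shares also differed between classes of cells within a library, over thinned cells and with the class's own UMIs taken out of the total. Lowest and highest refer to cells up to the first and from the last quartile of a library. Cells of a class share 1 library, so no test was made. In uninjured cells the cells lowest in P2ry12, the purinergic receptor of resting microglia, had a share of 13.3% (n = 225) and those highest in it 10.7% (n = 179). In injured cells the order was reversed, at 13.8% (n = 232) and 15% (n = 221). Median depths before thinning in the lowest and highest P2ry12 classes were 3412 and 2975 UMIs in uninjured cells. In injured cells they were 6393 and 3749 UMIs. For Spp1, which encodes osteopontin and rises in microglia after demyelination, the share in injured cells was 15.5% without a UMI (n = 136), 14.4% up to the median of the rest (n = 241) and 13.4% above it (n = 190). Median depths before thinning in these 3 classes were 3723, 3952 and 7259 UMIs. Injured cells with 0 UMIs of the chemokine gene Ccl4 had 16.3% (n = 132) and those with most of it 12.8% (n = 154), while in uninjured cells these values were 12% and 12.2%. Injured cells low in the early response list had 16.0% and those high in it 13.4%, and uninjured cells 12.8% and 11.6%. Median depths in these early response classes were 5242.5 and 3354 UMIs in injured and 3022 and 2980 UMIs in uninjured cells. The part of depth in the differences between classes was not tested. Gpnmb-positive injured cells had 12.5% (n = 43), dividing cells 13.3% (n = 28) and interferon-response cells 13.9% (n = 87). No class of injured cells shown fell below the 12.1% of all uninjured cells.

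Within injured cells the members did not all follow the summed share. From Spp1-negative cells to cells above the Spp1 median, 84 members had a median log2 ratio of −0.17, with a range of −0.66 to 0.84. The median was −0.03 over 2814 genes with at least 20 UMIs in these cells. Rps27 went from 5162 to 4421 to 3298 CPM over the 3 Spp1 classes, a log2 ratio of −0.65 (−0.78 to −0.52) between the outer classes. Rps27rt followed it from 1966 to 1656 to 1244 CPM (−0.66, −0.87 to −0.45), and Rps29 from 6922 to 5980 to 4780 CPM (−0.53, −0.64 to −0.43). Each of these genes was thus lowest in the class highest in Spp1. Reads of Rps27 and Rps27rt could be assigned to either gene, so these may not be separate observations. Rps27l ran the other way, from 235 to 388 to 421 CPM (0.84, 0.34 to 1.35), as did Rpl22l1, from 627 to 681 to 953 CPM (0.60, 0.29 to 0.92). Rpl41 and Rpl35, at 5681 and 6157 CPM and at 3539 and 3406 CPM in the outer classes, differed by less than 25%. Their difference from uninjured cells (3384 and 2045 CPM after thinning) was therefore present in cells with and without Spp1. These classes and genes were compared after their values had been seen.

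The 28 dividing cells were those with at least 3 UMIs of G2 and M phase genes after thinning (8 further cells had 1 UMI fewer). Rps27 and Rps27rt, whose reads may not be separable, were low in them as well. Before thinning the same minimum was met by 70 injured cells and 1 uninjured cell, so the other injured cells here include some of these. Rps27 was at 2319 CPM in dividing and 4291 CPM in other injured cells (−0.89, −1.19 to −0.60), and Rps27rt at 861 and 1619 CPM (−0.91, −1.43 to −0.43). Rps27l was at 526 and 350 CPM, from 22 UMIs in the dividing cells (0.59, −0.11 to 1.21), an interval that includes equal levels. Over all 84 members the median was −0.09, beside 0.23 over 4211 genes. Without the 70 and 1 cells of the larger set, over unthinned counts, Rps27 had a log2 ratio of 0.01 between injured and uninjured cells, Rps27rt −0.49 and Rps27l 0.89. The lower level of Rps27rt in the injured library and the higher level of Rps27l were thus also present outside these cells.

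The early response list, a set of dissociation-associated genes, went with some of the same genes. Whether its level came from cell preparation or from the state of the cells in the animal was not tested. In injured cells Rps27l was at 477 CPM in the cells lowest in that list and 193 CPM in those highest in it (−1.30, −1.86 to −0.77), the largest difference of any member there. In uninjured cells the values were 247 and 144 CPM (−0.78, −1.44 to −0.14). Rps27 was 4132 and 4692 CPM in the same injured classes (0.18, 0.05 to 0.31) and Rps27rt 1609 and 1625 CPM (0.01). Within the cells lowest in the list, Rps27l thus stood at 247 CPM in uninjured and 477 CPM in injured cells, and Rps27rt at 2145 and 1609 CPM. Lowest and highest cells were set within each library, so the level of the list was not matched between them.

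**Figure D5:**
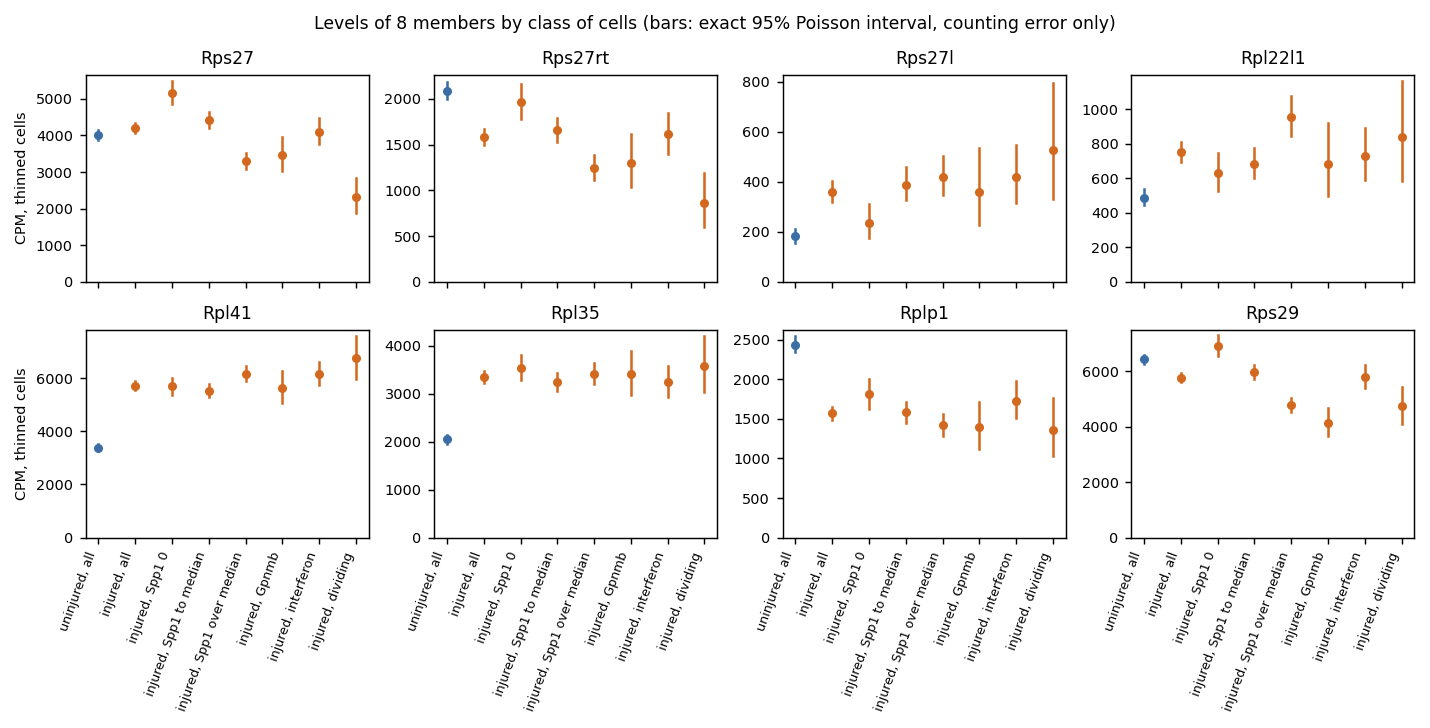
CPM of 8 members in thinned cells of the uninjured library (blue) and in all injured cells and 6 classes of them (orange), with exact 95% Poisson intervals; each y axis starts at 0. Rps27, Rps27rt and Rps29 step down with Spp1 while Rps27l and Rpl22l1 step up, and Rpl41, Rpl35 and Rplp1 keep their side of the uninjured level in each class shown.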

How the data were processed

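Polyadenylated RNA was profiled with 10x Chromium 3′ version 2 chemistry in 2 libraries, 1 per group. Each deposited matrix holds raw UMI counts, as whole numbers, by gene and cell barcode. The tools named in the submitters' processing notes are STAR, Cell Ranger 2.0.1 and Seurat 2.1.0, with build GRCm38.p5 (mm10). The way they were run, the annotation or the treatment of reads matching several genes is not given in the sources used here.

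A barcode was kept from 200 genes and up to 10% mitochondrial UMIs (10 and 3 removed, from 705 and 580). UMIs were summed per library and divided by the library's UMI total to give CPM. Log2 ratios carry an exact 95% interval for 2 Poisson counts, obtained by the Clopper-Pearson method. A measured gene had at least 20 UMIs over both libraries. TMM factors came from edgeR 4.0.16 and size factors from DESeq2 1.42.0, used for scaling alone. Cells were thinned with random seed 1, in Python 3.11.15 with numpy 2.4.6 and scipy 1.17.1. The computation was tested on simulated counts. Gene positions came from GENCODE (GRCm38) and start sequences from RefSeq (GRCm38.p6).

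Named members were the 10 highest and 10 lowest by the interval bound nearest 0, the 6 with most and 6 with fewest UMIs, every paralog-like and X-linked member, the P-stalk genes and Rpsa, with fixed genes and up to 4 of each list outside the members. Members named for their place in the ribosome (Rpl3, Rpl5, Rpl11, Rpl13a, Rpl19, Rpl22, Rpl23, Rpl24, Rps2, Rps3, Rps6, Rps26, Rps27a) were added after their values were seen. The members, lists and classes of cells were chosen with earlier results of these data known. Alternatives covered scaling, per-cell averaging, thinning, barcode and gene filters, cells with Y-linked UMIs alone, other cell types' markers, dividing cells and the core members. Amino acid sequences were not used here. A few members and list genes that this rule covers are not reported here.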

Additional observations from a re-analysis of the deposited data

How the results depend on the processing

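The log2 ratio of the summed members (0.19) was 0.33 when scaled by TMM, 0.37 when scaled by DESeq2 size factors, 0.16 when the 20 most abundant genes of each library left the total, 0.28 as a mean over cells, 0.23 after thinning, 0.13 in cells with Y-linked UMIs alone, 0.21 without cells holding other cell types' markers and 0.21 without dividing cells. In settings chosen after seeing the data it was 0.26 in cells of 2000 to 5000 UMIs, 0.18 with the -ps symbols added and 0.18 without cells of a member share of at least 25%. The median over members (0.19) was 0.34, 0.37 and 0.28 with TMM factors, DESeq2 size factors and means over cells. The 29 higher members became 52 with DESeq2 size factors and 17 in cells with Y-linked UMIs alone. The first follows from a constant shift of all ratios, and the cause of the second was not tested. The share of all measured genes counted as higher in these settings is not given here. The 2 members lower became 1 among core members, which leave out Rps27rt, and 1 (Rplp1) in cells of 2000 to 5000 UMIs. In each setting the members' median lay above that of all measured genes, by 0.25 to 0.40. No gene named by the rule that counted as higher or lower changed sign where it kept 20 UMIs. No paired analysis was possible because each group is 1 library with no replicate number. Depth sets the counting error and also went with the member share within each library, and its part in the ratios was not tested. Rpl39l and Rps19bp1 had too few UMIs to give a direction.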

Other observations

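In a few cells the share of UMIs from members was high. At least 25% of UMIs came from members in 7 uninjured and 13 injured cells, and at least 30% in 1 and 9. The 13 injured cells had a median of 2024 UMIs against 4453 in the other injured cells, and the nuclear RNA Malat1 was at 2977 CPM (79 UMIs) against 11131 CPM. Apoe was at 12999 against 31372 CPM in them, and Fau, a ribosomal protein outside the symbol rule, at 7385 against 2549 CPM. Without these cells the log2 ratio of the summed members was 0.18.

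Rows with -ps in the symbol, copies of members that the rule left out, took 0.478% of uninjured and 0.464% of injured UMIs (log2 ratio −0.04, −0.08 to −0.01, over the 13 of 16 that were measured). Some of these copies share most of their 3′ end with the parent gene. Rpl23a-ps3 had 1260 and 1030 CPM (log2 ratio −0.29), with 85.5% of 50-base windows in the last 400 bases of Rpl23a also found in it, and the sum of both had a log2 ratio of −0.21 against −0.17 for Rpl23a. Rps12-ps3 (log2 ratio −0.27) shared 96.0% of such windows with Rps12 (−0.06), and Rpl13-ps3 (−0.25) shared 57.3% with Rpl13 (0.12). Rpl10-ps3 shared 100% with Rpl10 and was at 0.23 against 0.09. How reads matching both a copy and its parent were counted is not given in the sources used here.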
